A study of Mus musculus with 6 samples.

Results

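The enzymes, regulators and receptors of fat breakdown were followed here in gonadal white adipose tissue (gWAT), a visceral depot attached to the reproductive tract. They were chosen by name, as the enzymes, cofactor and inhibitor of triglyceride hydrolysis, the beta-adrenergic receptors and the glycerol channel of adipocytes. Earlier results of these data were known when they were chosen. The rule also asks for a comparison without the chow library rich in seminal vesicle RNA, which was seen in these counts. All 8 listed genes (Pnpla2, Lipe, Mgll, Abhd5, G0s2, Adrb1, Adrb3 and Aqp7) were among the 19790 genes of the deposited table of read counts. RNA-seq was performed on gWAT of 6 wild-type C57BL/6 mice, with 3 mice on a normal chow diet (NCD) and 3 on a high-fat diet (HFD), each kept on its diet for 8 weeks. The mice of both groups shared strain and genotype, and the study's methods describe male animals. The labels give an age of 6 weeks for the start of feeding while the methods give 8 weeks, and the study uses the name WT also for floxed Tmem86a mice that carry no Cre, which the labels neither state nor deny for these animals. The labels call the replicates biological, so p-values measure the spread between mice.

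Lipolysis is the stepwise removal of fatty acids from stored triglyceride. Noradrenaline acts on beta-adrenergic receptors, which raise cyclic AMP and activate protein kinase A; the kinase phosphorylates perilipin 1 on the lipid droplet and hormone-sensitive lipase. Perilipin 1 then frees ABHD5, which activates adipose triglyceride lipase, and the glycerol left at the end leaves the adipocyte through aquaporin 7. In gonadal fat these genes are expressed mainly by adipocytes, and because the tissue was measured in bulk, fewer adipocytes and less RNA per adipocyte cannot be told apart in what follows.

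In the annotation of GRCm38.p6, Pnpla2 (NCBI gene 66853) lies at chr7:141455188-141460743 on the plus strand and Lipe (16890) at chr7:25379527-25398486 on the minus strand of the same chromosome. Mgll (23945) lies at chr6:88724412-88828360 (plus), Abhd5 (67469) at chr9:122351616-122381524 (plus) and G0s2 (14373) at chr1:193272160-193273188 (minus). The receptors Adrb1 (11554) and Adrb3 (11556) lie at chr19:56722117-56725150 (plus) and chr8:27225776-27230845 (minus), and Aqp7 (11832) at chr4:41033074-41048237 (minus).

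The libraries held between 49575113 and 66360046 counts, and NCD replicate 1 stood apart. The 11 seminal vesicle genes searched for, which encode secreted proteins of that gland, came to 58.6%, 11.2% and 2.30% of all counts in NCD replicates 1, 2 and 3 and to at most 0.121 CPM (counts scaled to a common library total, the unit of this paragraph) on HFD. The 4 adipocyte markers (Adipoq, Plin1, Cidec and Pparg) summed to 675 CPM in NCD replicate 1, against 5266 and 7691 CPM in the other NCD mice and 3510 to 4993 CPM on HFD, so the labelled tissue was present in every library and least represented in that one. The 6 macrophage markers were all higher on HFD without overlap (155 to 686 CPM on NCD, 2219 to 4044 CPM on HFD), and 3 of 4 endothelial, 2 of 4 stromal and 1 of 3 mesothelial markers were likewise higher. With libraries scaled by the trimmed mean of M-values, as further below, 2 of the 4 endothelial markers were higher without overlap. On that scale 39.2% of all genes did not overlap, in either direction. Without NCD replicate 1 the endothelial marker Kdr and the stromal marker Dcn were then lower on HFD without overlap. Of the smooth muscle markers 2 of 4, and of the epithelial markers 2 of 3, were lower on HFD, with sums highest in NCD replicate 1 (2342 and 241 CPM), while none of the 4 lymphocyte markers separated the diets. Of the brown adipocyte markers, Zic1 was at 0 in every library and Ucp1 was at 0 on NCD and at most 0.121 CPM on HFD. The part of these other cells in the results below was not tested, and the fold change of each of the 8 genes is given with and without NCD replicate 1.

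A stretch upstream of an annotated start is shown for the lipase genes Pnpla2 and Lipe and for the activator (Abhd5) and inhibitor (G0s2) of the first one. They were chosen because the ratios of the last 3 to Pnpla2, given below, were lower in every HFD mouse than in any NCD mouse. The Lipe stretch belongs to a start inside the span of the gene given above. Sequences are from RefSeq (GRCm38.p6), read 5′ to 3′ on the gene's strand and ended where an annotated exon begins, at chr7:141454938-141455187 (plus strand) for Pnpla2, chr7:25390113-25390362 (minus strand, 1 of the starts annotated for the gene) for Lipe, chr9:122351366-122351607 (plus strand) for Abhd5 and chr1:193273218-193273438 (minus strand) for G0s2. Capitals mark matches, on either strand, to any of 5 short motifs. These were the nuclear receptor element with the letters AGGTCA, the shorter form of the cyclic AMP response element with the letters TGACG, the GC box with the letters GGGCGG, the TATA box with the letters TATAAA, and the CCAAT box, which is named by its letters.
Pnpla2: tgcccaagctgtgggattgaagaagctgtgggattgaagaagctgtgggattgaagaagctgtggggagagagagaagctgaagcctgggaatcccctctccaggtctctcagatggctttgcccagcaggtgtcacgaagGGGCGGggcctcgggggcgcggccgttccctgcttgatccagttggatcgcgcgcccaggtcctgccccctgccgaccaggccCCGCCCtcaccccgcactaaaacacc
Lipe: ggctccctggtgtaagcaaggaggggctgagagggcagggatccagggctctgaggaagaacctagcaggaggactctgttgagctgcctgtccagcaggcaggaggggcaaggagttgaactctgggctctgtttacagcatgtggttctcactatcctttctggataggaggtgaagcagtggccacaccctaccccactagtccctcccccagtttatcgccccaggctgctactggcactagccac
Abhd5: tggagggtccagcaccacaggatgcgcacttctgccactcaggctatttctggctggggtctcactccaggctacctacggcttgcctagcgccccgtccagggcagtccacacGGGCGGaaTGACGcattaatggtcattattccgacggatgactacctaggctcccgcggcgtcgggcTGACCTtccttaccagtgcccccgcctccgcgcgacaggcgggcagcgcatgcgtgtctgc
G0s2: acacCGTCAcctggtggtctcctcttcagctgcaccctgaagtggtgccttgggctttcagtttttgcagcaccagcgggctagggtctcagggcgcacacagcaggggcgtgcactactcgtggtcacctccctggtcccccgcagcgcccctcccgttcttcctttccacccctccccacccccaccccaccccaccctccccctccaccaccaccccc
The Pnpla2 stretch carried 2 GC boxes, the Lipe stretch none of the 5 motifs, the Abhd5 stretch 1 GC box, 1 TGACG and 1 AGGTCA match, and the G0s2 stretch 1 TGACG match.

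A window of 250 bases upstream of a start was found for 7 of the 8 genes. Some genes have several starts, so those 7 had 10 windows. TGACG was found in 3 of the 10 windows (1 each of G0s2, Abhd5 and Adrb1), where 17.8% of 32851 windows of all genes held it. AGGTCA was in 3 of 10 (Abhd5 and Aqp7; 14.0% of all windows), GGGCGG in 6 of 10 (32.7%), CCAAT in 1 of 10 (Adrb1; 33.8%) and TATAAA in 0 of 10 (12.4%). No motif shares its whole run of letters with another of the 5, although neighbouring GC boxes can overlap, as at the other Lipe start, which held 6. These matches describe letters only.

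Levels of different genes were compared as FPKM, which divides counts by exon length and library total. On HFD Pnpla2, encoding adipose triglyceride lipase, was the highest of the 8, at 508, 615 and 450 FPKM in replicates 1, 2 and 3. Lipe (hormone-sensitive lipase; 189, 237 and 166 FPKM), Mgll (monoglyceride lipase; 251, 189 and 147 FPKM) and G0s2 (inhibitor of adipose triglyceride lipase; 146, 209 and 225 FPKM) followed with ranges that overlapped one another. Below them Aqp7 (63.9 to 120 FPKM), Adrb3 (39.0 to 132 FPKM) and Abhd5 (45.1 to 71.1 FPKM) overlapped as well, and Adrb1 was lowest at 1.32 to 1.65 FPKM. The ranges were apart between Pnpla2 and Lipe, between G0s2 and Aqp7 and between Abhd5 and Adrb1.

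On NCD the order differed. G0s2 stood at 36.6, 430 and 503 FPKM in NCD replicates 1, 2 and 3 and Pnpla2 at 61.6, 370 and 533 FPKM, so G0s2 was above Pnpla2 in 1 of 3 mice. Adrb3, the beta-3 receptor of rodent adipocytes, stood at 32.9, 221 and 422 FPKM. Among all genes by FPKM it ranked 740th, 218th and 102nd in NCD replicates 1, 2 and 3 and 1091st, 429th and 1897th in HFD replicates 1, 2 and 3, so HFD replicate 2 ranked above NCD replicate 1. Adrb1, the beta-1 receptor, was at 0.332, 1.79 and 1.90 FPKM. Between neighbours in the NCD order, the ranges were apart only for Aqp7 and Adrb1, and NCD replicate 1 was the lowest NCD mouse for every gene of the 8.

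In NCD replicate 1 the 8 genes and the adipocyte markers were all low, to differing degrees. In CPM, the 8 genes were 5.39-fold (Adrb1) to 11.7-fold (G0s2) higher in NCD replicate 2 than in NCD replicate 1, and the summed adipocyte markers were 7.80-fold higher. For NCD replicate 3 over NCD replicate 1 the folds ran from 5.72 (Adrb1) to 13.7 (G0s2), beside 11.4 for the markers. As a share of all counts, the 8 genes together came to 0.0677% in NCD replicate 1, 0.507% and 0.685% in the other NCD mice and 0.433%, 0.482% and 0.348% on HFD. Scaling by the trimmed mean of M-values (TMM) gave that library a factor of 0.496, against 1.02 to 1.27 in the others, and the values in the next paragraphs are CPM on that scale.

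With all 6 mice, 0 of the 8 genes passed an adjusted p of 0.05 in edgeR's quasi-likelihood test, where 7.47% of 15241 genes tested did (1.90% lower and 5.58% higher on HFD). Adrb3 alone had an unadjusted p under 0.05, 1 of the 8, where 29.7% of all genes did. DESeq2 called 1 of the 8, again Adrb3, where it called 20.2% of 19056 genes. None of the 8 had diets that did not overlap, against 39.2% of all genes. The median log2 fold change of the 8 was -0.29, beside -0.08 over all genes. Without NCD replicate 1, 4 of the 8 passed, all lower on HFD (Lipe, Abhd5, G0s2 and Adrb3), where 20.9% of 15510 genes passed, 10.1% lower and 10.7% higher. Of the 8, 6 lay lower on HFD without overlap, against 28.1% of all genes, and the median was -0.67 beside 0.02 over all genes.

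**Figure D1:**
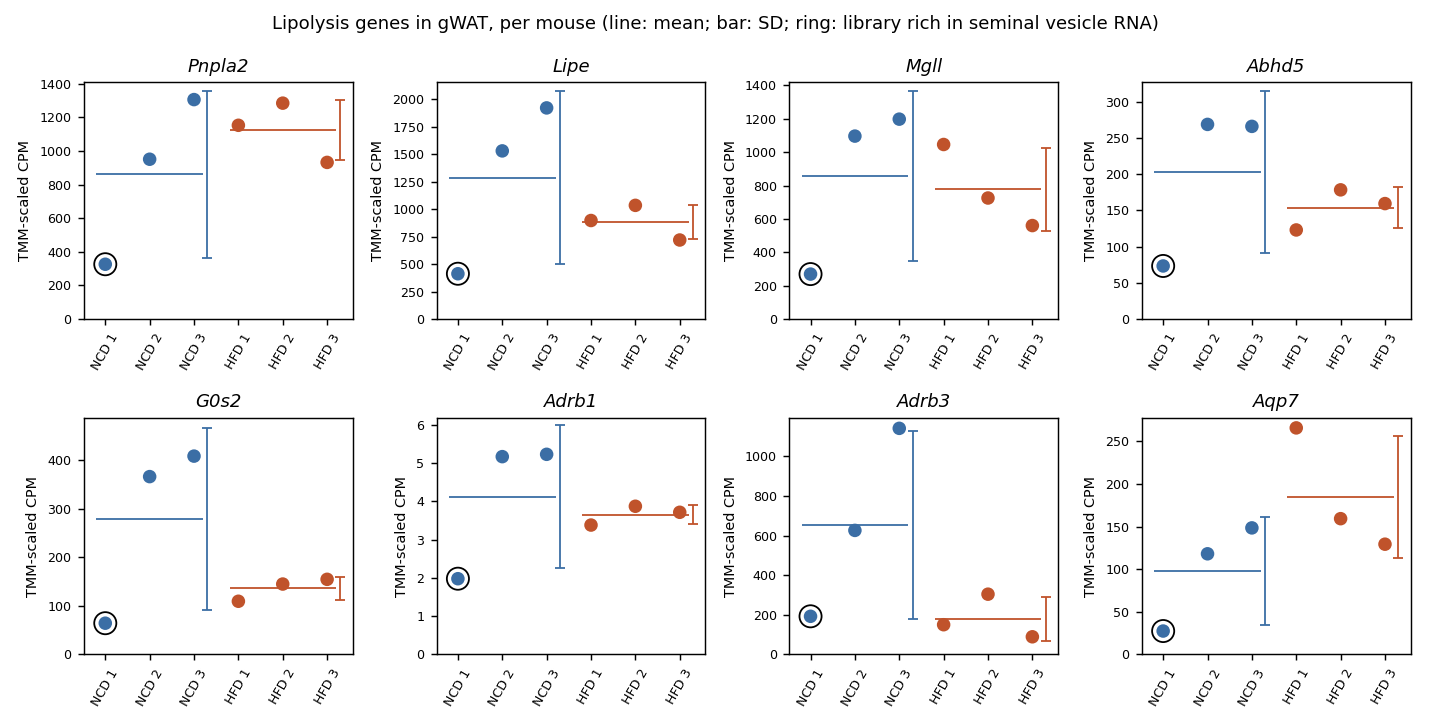
TMM-scaled CPM of the 8 genes in each mouse, 1 panel a gene, with NCD mice in blue and HFD mice in orange, lines at the group mean and bars of 1 SD (n = 3). The ringed NCD replicate 1 is the lowest NCD mouse in every panel, and for G0s2 the other NCD mice (367 and 409 CPM) lie above all HFD mice (110 to 155 CPM).

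The receptors differed most in Adrb3. Its level was 192, 626 and 1141 CPM in NCD replicates 1, 2 and 3 and 150, 304 and 89.1 CPM in HFD replicates 1, 2 and 3. The groups overlapped only through NCD replicate 1, which lay below HFD replicate 2. The means were 653 ± 475 and 181 ± 111 CPM (SD, n = 3), and the log2 fold change of -1.85 (SE 0.743) did not pass the test with 6 mice (adjusted p = 0.161, edgeR's quasi-likelihood test). Without NCD replicate 1 Adrb3 fell by 2.28 on the log2 scale (SE 0.548, adjusted p = 0.0386 in edgeR), or 4.84-fold. Adrb3 also varied most among HFD mice, 3.41-fold from lowest to highest, where the other 7 genes varied 1.15-fold to 2.05-fold.

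Adrb1 was a rare transcript, with 65 to 323 reads per library. It stood at 1.98, 5.17 and 5.23 CPM on NCD and at 3.38, 3.87 and 3.71 CPM on HFD. The HFD mice lay between NCD replicate 1 and the other NCD mice. The log2 fold change was -0.18 (SE 0.410, adjusted p = 0.795 in edgeR) with 6 mice and -0.49 (SE 0.201, adjusted p = 0.136) without NCD replicate 1. Its sign with 6 mice turned to 0.19 under scaling by total counts alone, which put the median log2 fold change over all genes at 0.45 in place of -0.08.

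Among the lipases, Lipe but not Pnpla2 passed the test without NCD replicate 1, and neither passed with 6 mice. Pnpla2, which opens triglyceride hydrolysis, was at 326, 951 and 1306 CPM on NCD and 1153, 1285 and 933 CPM on HFD. HFD mice lay within the range of NCD replicates 2 and 3 but for replicate 3, which was slightly below it. Its log2 fold change was 0.38 (SE 0.522, adjusted p = 0.649 in edgeR) with 6 mice and 0.0057 (SE 0.251, adjusted p = 0.989) without NCD replicate 1, the latter with a sign that turned under median-of-ratios scaling (-0.0031).

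Lipe, whose product acts next on diglyceride, was at 412, 1530 and 1921 CPM on NCD and 897, 1034 and 719 CPM on HFD. All HFD mice lay under NCD replicates 2 and 3 and above NCD replicate 1. The log2 fold change of -0.54 (SE 0.575) did not pass the test with 6 mice (adjusted p = 0.553 in edgeR), and without NCD replicate 1 Lipe fell by 0.95 (SE 0.244, adjusted p = 0.0448), or 1.94-fold.

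Mgll, which releases the last fatty acid, was at 269, 1096 and 1198 CPM on NCD and 1046, 725 and 560 CPM on HFD. HFD replicate 1 came close to NCD replicates 2 and 3, and the other HFD mice were lower. Neither fit passed, with a log2 fold change of -0.14 (SE 0.590, adjusted p = 0.894 in edgeR) with 6 mice and -0.55 (SE 0.293, adjusted p = 0.229) without NCD replicate 1. The sign of Mgll with 6 mice turned under scaling by total counts (0.16) and by adipocyte markers (0.15).

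The activator and the inhibitor of adipose triglyceride lipase were both lower once NCD replicate 1 was left out. Abhd5, the activator, was at 73.4, 269 and 266 CPM on NCD and 123, 179 and 160 CPM on HFD. The HFD mice formed a band well under NCD replicates 2 and 3 but above NCD replicate 1. Its log2 fold change of -0.40 (SE 0.494, adjusted p = 0.613 in edgeR) with 6 mice became a fall by 0.78 (SE 0.186, adjusted p = 0.0372), or 1.72-fold, without that library.

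G0s2, the inhibitor, was at 64.4, 367 and 409 CPM on NCD and 110, 145 and 155 CPM on HFD. HFD values were close together, at 137 ± 23.8 CPM (SD, n = 3), and NCD replicate 1 was again below them. The log2 fold change was -1.04 (SE 0.642, adjusted p = 0.323 in edgeR) with 6 mice. Without NCD replicate 1 G0s2 fell by 1.49 (SE 0.191, adjusted p = 0.0089), or 2.81-fold, which was the smallest adjusted p among the 8.

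Aqp7, the glycerol channel, was the gene of the 8 with the largest log2 fold change above 0. It stood at 27.5, 118 and 148 CPM on NCD and at 266, 159 and 129 CPM on HFD. HFD replicate 3 lay between NCD replicates 2 and 3, so the diets overlapped with and without NCD replicate 1. The log2 fold change was 0.91 (SE 0.623, adjusted p = 0.363 in edgeR) with 6 mice and 0.48 (SE 0.326, adjusted p = 0.333) without it, and neither passed.

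**Figure D2:**
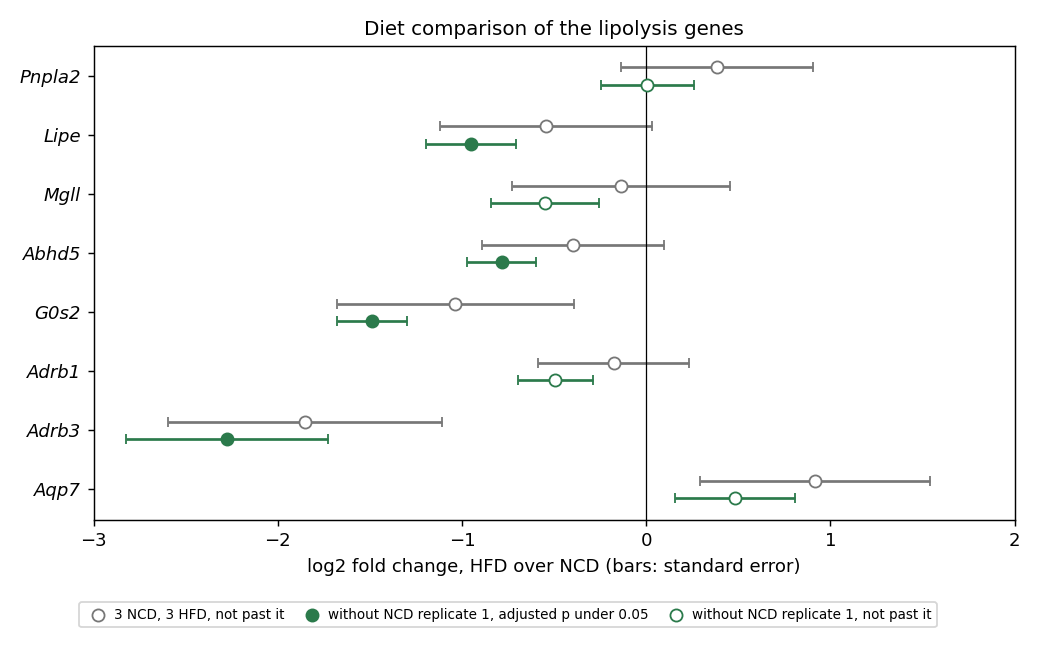
Log2 fold change of each gene, HFD over NCD, with bars of 1 standard error, for all 6 mice in grey and without NCD replicate 1 in green, filled where the adjusted p was under 0.05. No grey point is filled, and the filled green points are Lipe (-0.95), Abhd5 (-0.78), G0s2 (-1.49) and Adrb3 (-2.28).

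The 4 calls rest on few mice. With NCD replicate 2 or NCD replicate 3 left out as well, 0 of the 8 passed in edgeR, where 3.32% and 1.28% of all genes did. With HFD replicate 1 left out, Abhd5, G0s2 and Mgll passed (3 of the 8, against 25.1% of all genes), Mgll with a log2 fold change of -0.84 (adjusted p = 0.0457 in edgeR), while Lipe (adjusted p = 0.0578) and Adrb3 (adjusted p = 0.0688) did not. With HFD replicate 2 left out G0s2 and Adrb3 passed (11.2% of all genes), and with HFD replicate 3 left out G0s2 passed (12.4%).

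The calls also changed with scaling. Scaling by total counts without NCD replicate 1 gave 2 calls among the 8, G0s2 and Adrb3, where 22.6% of all genes passed. Scaling by the summed adipocyte markers gave 2 calls, Adrb3 lower by a log2 fold change of -1.53 (adjusted p = 0.0044 in edgeR) and Aqp7, which was not among the 4, higher by 1.22 (adjusted p = 0.0186). That scaling put the median over all genes at 0.78 and called 30.9% of them, 28.1% higher and 2.86% lower.

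Ratios between genes of the same library do not depend on how libraries are scaled, and NCD replicate 1 is shown beside the others. Whether the other tissue in that library adds RNA of the genes compared was not tested. With 3 mice against 3 the exact two-sided permutation test cannot give a p below 0.1. It gave 0.1 for each ratio named here as not overlapping, and 0.167 after Benjamini-Hochberg adjustment over the 15 ratios tested, so none passes 0.05. Of the 7 ratios between members, 5 did not overlap between diets, with Adrb1 to Adrb3 among them. The others are ratios to Pnpla2, and among all genes the ratio to Pnpla2 did not overlap for 24.2%. For ratios to Adrb3 no such share was computed. The ratios share genes, so they are not separate results.

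The Lipe to Pnpla2 ratio of FPKM was 0.605, 0.770 and 0.704 on NCD and 0.372, 0.385 and 0.369 on HFD. It was the tightest of the ratios on HFD, and NCD replicate 1 lay on the side of the other NCD mice. The mean log2 ratio was lower by a difference of -0.88, a 1.84-fold lower ratio, and by -0.97 without NCD replicate 1. For the activator, the Abhd5 to Pnpla2 ratio was 0.187, 0.235 and 0.169 on NCD and 0.0888, 0.115 and 0.142 on HFD, 1.72-fold lower (1.76-fold without NCD replicate 1).

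The inhibitor followed the same direction. The G0s2 to Pnpla2 ratio was 0.595, 1.16 and 0.943 on NCD and 0.286, 0.340 and 0.5004 on HFD. No HFD mouse reached the lowest NCD mouse, and the ratio was 2.37-fold lower (2.86-fold without NCD replicate 1). The Mgll to Pnpla2 ratio (0.450, 0.627 and 0.499 on NCD, 0.494, 0.307 and 0.327 on HFD) and the Aqp7 to Pnpla2 ratio (0.0863, 0.127 and 0.117 on NCD, 0.236, 0.127 and 0.142 on HFD) overlapped between diets, each with an exact permutation p = 0.2; their differences in mean log2 ratio were -0.50 and 0.58, and -0.61 and 0.41 without NCD replicate 1.

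Of the 7 ratios, those with Adrb3 had the largest differences in mean log2 ratio. The Adrb3 to Pnpla2 ratio was 0.535, 0.597 and 0.792 on NCD and 0.118, 0.215 and 0.0867 on HFD. All NCD mice, the one rich in seminal vesicle RNA included, lay above all HFD mice, and the ratio was 4.86-fold lower on HFD (5.29-fold without NCD replicate 1). The Adrb1 to Adrb3 ratio was 0.0101, 0.0081 and 0.0045 on NCD and 0.0221, 0.0125 and 0.0408 on HFD, 3.13-fold higher (3.72-fold without NCD replicate 1), so beta-3 receptor RNA exceeded beta-1 receptor RNA in every mouse of either diet and did so by less on HFD.

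**Figure D3:**
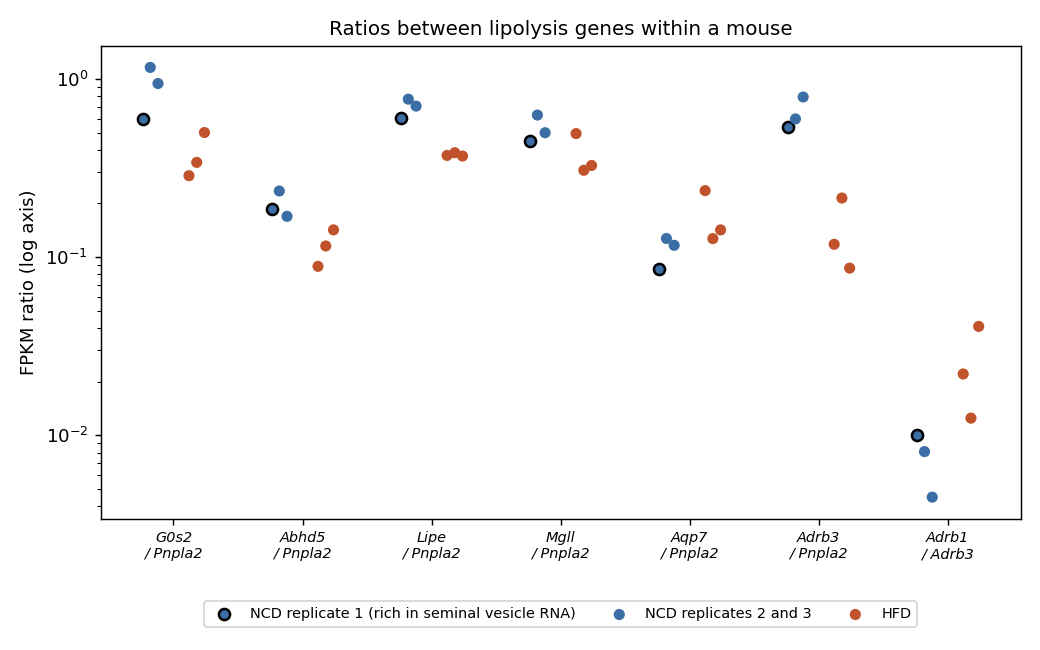
Ratios of FPKM within each mouse on a log axis, NCD in blue, HFD in orange and NCD replicate 1 outlined in black. Diets are apart for 5 of the 7 ratios and overlap for Mgll to Pnpla2 and Aqp7 to Pnpla2; the Adrb3 to Pnpla2 ratio runs from 0.535 to 0.792 on NCD and from 0.0867 to 0.215 on HFD.

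The 8 genes were also set against the summed counts of the 4 adipocyte markers, and 4 of 8 ratios did not overlap between diets, where 14.8% of all genes did not. These markers are no fixed yardstick, since Plin1 itself was lower on HFD without NCD replicate 1 (log2 fold change -1.17, adjusted p = 0.0234 in edgeR), as was Pparg (-1.11, adjusted p = 0.0123). All 4 were then lower on HFD without overlap in TMM-scaled CPM, and 2 of the 4 in CPM without that scaling.

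Against the markers, Adrb3 was at 0.141, 0.121 and 0.159 on NCD and 0.0370, 0.0766 and 0.0321 on HFD. The ratio was 3.10-fold lower (3.09-fold without NCD replicate 1), with NCD replicate 1 between the other NCD mice. Aqp7 was at 0.0201, 0.0229 and 0.0207 on NCD and 0.0655, 0.0401 and 0.0466 on HFD, which was 2.34-fold higher (2.28-fold without it), and the NCD mice lay within a narrow band. Pnpla2 was at 0.239, 0.185 and 0.182 on NCD and 0.284, 0.324 and 0.336 on HFD, or 1.57-fold higher (1.71-fold without it). Lipe was at 0.302, 0.297 and 0.268 on NCD and 0.221, 0.260 and 0.259 on HFD, a small difference of 1.17-fold lower (1.14-fold without it). The other 4 genes overlapped, with differences in mean log2 ratio of 0.15 for Mgll, -0.14 for Abhd5, -0.60 for G0s2 and 0.01 for Adrb1 (0.17, -0.039, -0.74 and 0.27 without NCD replicate 1).

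**Figure D4:**
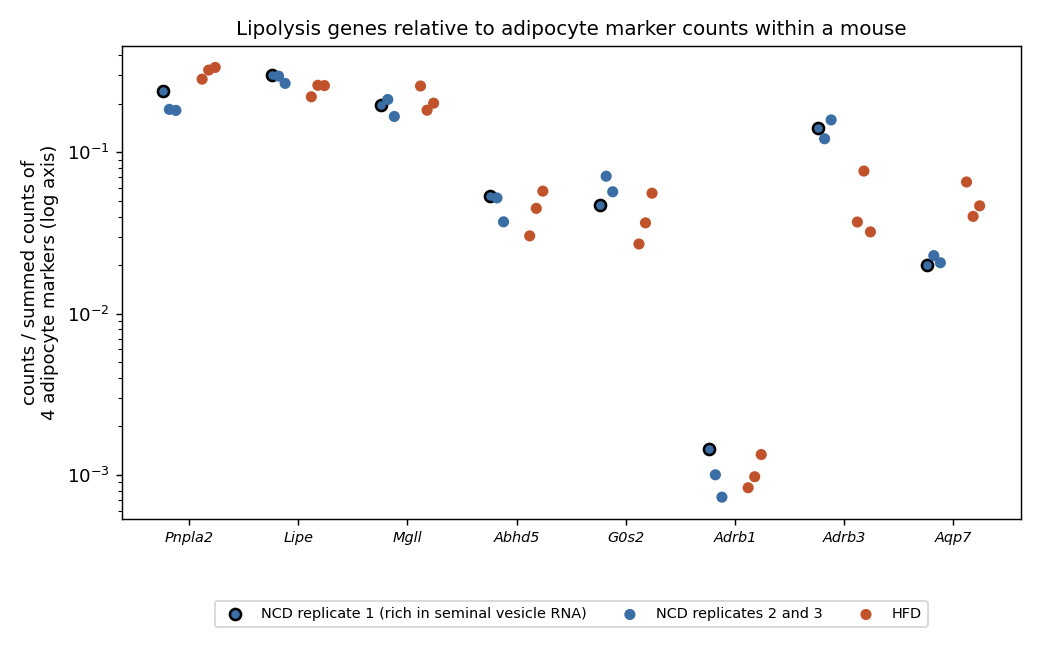
Counts of each gene divided by the summed counts of 4 adipocyte markers in each mouse, on a log axis, NCD in blue, HFD in orange and NCD replicate 1 outlined in black. Adrb3 and Lipe are lower and Aqp7 and Pnpla2 higher on HFD without overlap, and NCD replicate 1 lies near the other NCD mice for Adrb3 (0.141 beside 0.121 and 0.159).

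Beyond the 8 genes, 49 listed genes of the pathway were all tested. With 6 mice 5 of 49 passed in edgeR, 3 higher and 2 lower on HFD, and without NCD replicate 1 21 of 49 passed, 9 higher and 12 lower. The split depended on scaling: with 6 mice it was 2 higher and 3 lower under upper-quartile scaling and 3 higher and 0 lower under total counts. Without NCD replicate 1 it was 15 higher and 4 lower under scaling by adipocyte markers, which put the median of all genes at 0.78. These are to be read beside the 7.47% and 20.9% of all genes that passed. The median log2 fold change was -0.13 in both fits. The counts rest on few mice too. From 6 mice, leaving out any mouse but NCD replicate 1 gave 0 of 49, in fits that called only 2 to 7 genes among all genes. Without NCD replicate 1, leaving out HFD replicate 1, 2 or 3 as well gave 24, 14 and 17 of 49, where 25.1%, 11.2% and 12.4% of all genes passed. Fewer passed where a lone NCD mouse remained. Values below are TMM-scaled CPM, and log2 fold changes with adjusted p in edgeR's quasi-likelihood test are without NCD replicate 1 unless said otherwise.

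Of 7 inhibitory receptors, 1 fell. Ptger3, the prostaglandin E2 receptor EP3 that couples to the inhibitory G protein, was at 34.6, 96.0 and 109.7 CPM on NCD and 12.1, 12.2 and 6.49 CPM on HFD. It was lower in every HFD mouse than in any NCD mouse, and it passed with 6 mice (log2 fold change -2.97, adjusted p = 0.0289) and without NCD replicate 1 (-3.31). Of the 4 other receptors, Tshr, the thyrotropin receptor, fell by 1.37 and Npr1, the natriuretic peptide receptor that makes cyclic GMP, rose by 0.58.

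Of 15 genes of cyclic AMP signalling, 3 rose and 3 fell. Adenylyl cyclases, which make cyclic AMP, went both ways: Adcy5 (1.21) and Adcy4 (0.87) rose and Adcy6 (-0.70) fell. Gnai2, an inhibitory G protein subunit, rose by 0.91. Pde3b, the phosphodiesterase through which insulin lowers cyclic AMP, was at 121, 367 and 549 CPM on NCD and 224, 197 and 120 CPM on HFD and fell by 1.34 (adjusted p = 0.036). Prkaca, a catalytic subunit of protein kinase A, fell by 1.15, and both genes overlapped between diets through NCD replicate 1. Adcy5 was the one gene of the 15 past the threshold with 6 mice (1.45, adjusted p = 0.0499).

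Of 3 genes of receptor desensitization, 2 rose: Arrb2 (beta-arrestin 2; 1.44) and Grk2 (a kinase that phosphorylates active receptors; 0.70). Arrb2 was at 51.5, 33.0 and 30.3 CPM on NCD and 64.8, 79.4 and 110.5 CPM on HFD, with no overlap. With 6 mice neither passed (adjusted p = 0.0661 and 0.0528). Beta-arrestin 2 is also expressed by macrophages, whose 6 markers were higher in the same mice as given above, and the part of those cells was not tested.

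Of 8 droplet partners, Hilpda rose and Plin1 fell. Hilpda, like G0s2 an inhibitor of adipose triglyceride lipase, was at 3.38, 4.87 and 6.27 CPM on NCD and 23.1, 31.7 and 55.7 CPM on HFD. The diets were far apart, and the gene passed with 6 mice (2.92, adjusted p = 0.0228) and without NCD replicate 1 (2.74). In the latter fit G0s2 was lower (-1.49), opposite to Hilpda. With 6 mice G0s2 did not pass (-1.04, adjusted p = 0.323 in edgeR), nor did it without NCD replicate 1 under scaling by adipocyte markers (-0.69, adjusted p = 0.155). The part of other cells was not tested. Plin1, perilipin 1, was at 287, 1289 and 1235 CPM on NCD and 592, 651 and 425 CPM on HFD.

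Of 5 other hydrolases, 4 fell and 0 rose. Pnpla3, a relative of Pnpla2, was at 268, 918 and 1091 CPM on NCD and 73.9, 83.3 and 34.4 CPM on HFD and was lower in both fits (log2 fold change -3.57, adjusted p = 0.0335 with 6 mice, and -3.96 without NCD replicate 1). Ces1f (-1.75), Abhd6 (-1.17) and Ddhd2 (-0.81) fell without NCD replicate 1. Members of the Ces1 family lie side by side and resemble one another, and the sources used here do not state how reads shared between them were counted.

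Of 4 genes of glycerol handling, 2 rose and 1 fell. Aqp9, another glycerol channel, was rare and rose by 2.07 (0.88, 1.04 and 0.99 CPM on NCD, 4.14, 3.27 and 5.24 CPM on HFD; adjusted p = 0.0228 with 6 mice). Gk, the kinase that recaptures glycerol, rose by 1.26, and Gpd1, which makes glycerol 3-phosphate from glycolysis, fell by 2.12. Gpd1 was at 485, 2168 and 2157 CPM on NCD and 575, 531 and 378 CPM on HFD, so the diets overlapped through NCD replicate 1. Of 3 genes of catecholamine clearance, Maob, a monoamine oxidase, fell by 1.92.

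**Figure D5:**
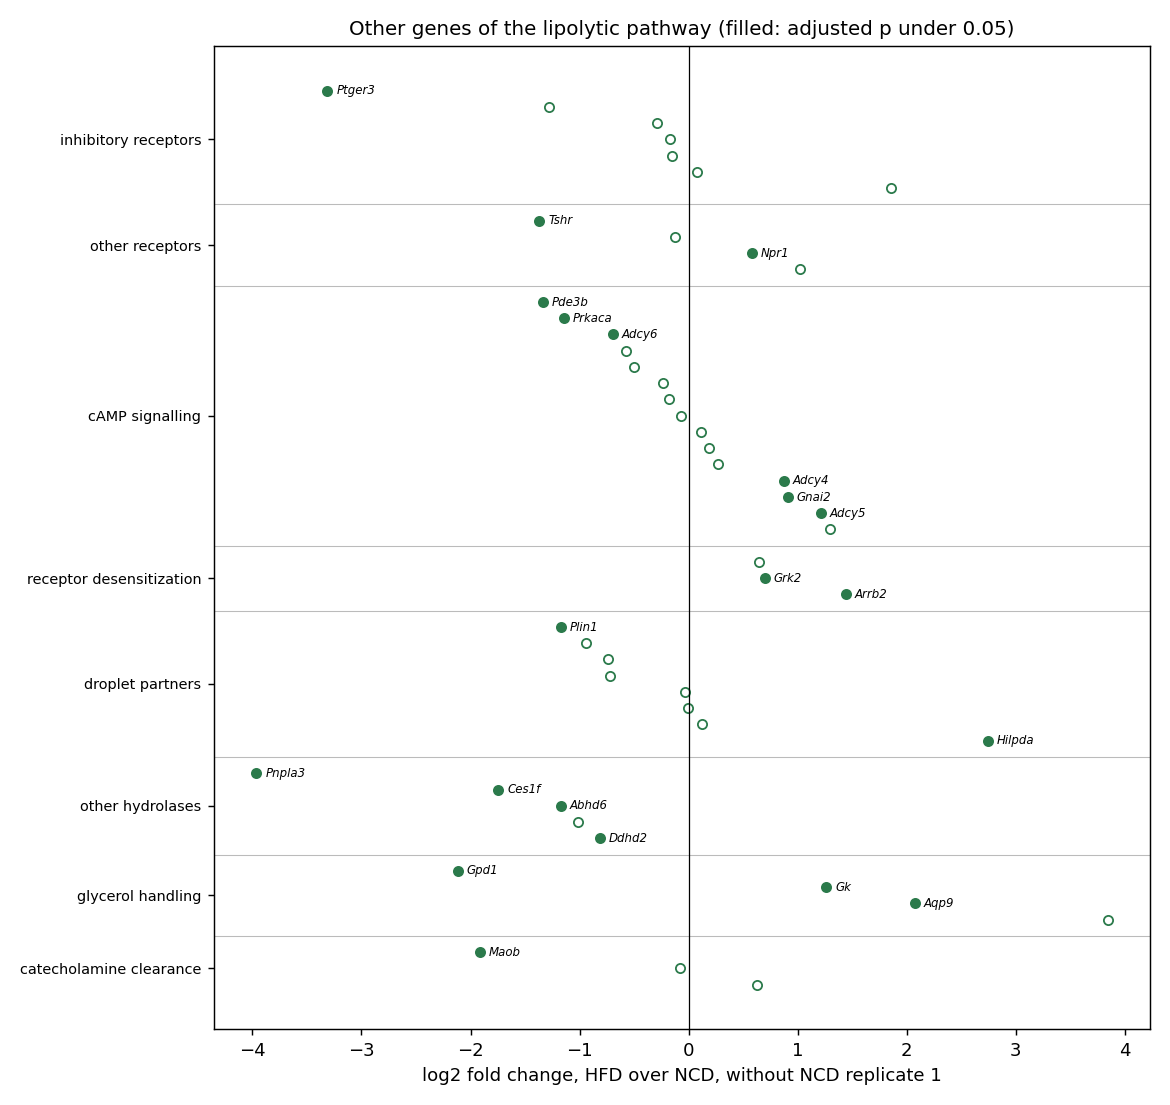
Log2 fold change, HFD over NCD without NCD replicate 1, of the 49 other pathway genes, 1 line a gene, grouped by role and filled and named where the adjusted p was under 0.05. Of the 21 filled points 9 lie right of 0 and 12 left, from Pnpla3 (-3.96) to Hilpda (2.74).

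Over the 6 libraries, the genes whose log2(TMM-scaled CPM + 1) was most like that of Pnpla2, among 9887 genes with a mean of at least 10 CPM, were Palmd (Pearson r = 0.997), Ripor1 (0.995) and Zdhhc17 (0.995). For Adrb3 they were Fars2 (0.997), Esr1 (0.989) and Pef1 (0.988). These r values are descriptions over 6 points, and they carry no p. NCD replicate 1 was the lowest point for Pnpla2 and the genes like it, and HFD replicate 3 for Adrb3 and the genes like it. A high r does not mean a change of like size: Fars2 ran from 15.5 to 23.2 CPM and Adrb3 from 89.1 to 1141 CPM.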

How the data were processed

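RNA-seq counts of gWAT from 6 mice were used, and groups were taken from the sample labels. The authors deposited raw read counts per gene, not normalized, with 1 column a mouse and genes by NCBI identifier. The submitters' processing notes name bcl2fastq 2.20.0, Trimmomatic, HISAT2 2.1.0, StringTie 1.3.4d, DESeq2 and the builds mm10 and GRCm38; the counting tool, its use of strand and its treatment of multiply mapped reads were not given in the sources used here. Authors' columns of comparisons and normalized values were not used. Of 19790 identifiers 19742 matched a symbol (RefSeq, GRCm38.p6), and the 48 others held 0.629% of counts. 0 columns lacked a sample.

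The counts were tested in edgeR 4.0.16 (R 4.3.3) with its quasi-likelihood functions glmQLFit and glmQLFTest and no covariate. TMM scaling was used, after filterByExpr had removed low genes (at least 10 counts, and 15 in total). The Benjamini-Hochberg adjustment ran over all genes tested, and calls were made at 0.05. Standard errors were obtained as the absolute log2 fold change over the square root of F. The biological coefficient of variation was 0.424 with 6 mice and 0.288 without NCD replicate 1. FPKM was computed from the union of GENCODE vM21 basic exons, found for 17793 genes. Ratios were tested with an exact two-sided permutation test. Replicates of a diet differed by more than counting noise (116 to 3597 for chi-square over its degrees of freedom). At these depths the spread between mice, rather than counting error, limits precision for all but rare genes.

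The members, the 49 pathway genes, the 10 marker lists (adipocyte, macrophage, endothelial, stromal, mesothelial, lymphocyte, brown adipocyte, seminal vesicle, epithelial and smooth muscle) and the tests were chosen with earlier results of these data known. Named genes are the 8 members, pathway genes past the threshold in either fit, and the 3 genes most like Pnpla2 and Adrb3. Alternatives were no filter, other scalings (median-of-ratios, upper-quartile, total counts, TMM without seminal vesicle genes, adipocyte markers), DESeq2 1.42.0, the replicate number as a block and each mouse left out. The procedure was also run on simulated counts with known changes. No simulated library was given RNA of another tissue, so that run cannot decide between the fits with and without NCD replicate 1. Plots were made in Python 3.11.15 (matplotlib 3.10.9).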

Additional observations from a re-analysis of the deposited data

How the results depend on the processing

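With 6 mice, no member passed under the other scalings, without a filter or under the replicate block (0). In DESeq2 1 (Adrb3) passed, against 20.2% of all genes. With 1 mouse left out, 4 passed without NCD replicate 1 (20.9% of all genes) and 0 otherwise, in fits that called only 2 to 7 genes among all genes. Without NCD replicate 1 there were 4 calls, against 2 under total counts (G0s2 and Adrb3; 22.6% of all genes passed), 2 under adipocyte markers (Adrb3, and Aqp7, which is not one of the 4; 30.9%) and 0 to 3 with a further mouse left out (1.28% to 25.1%), where a second NCD mouse left out leaves a lone one, assumed to vary like the others. Of the pathway genes, 5 with 6 mice became 3 under total counts (959 of 15241 genes passed) and 17 in DESeq2 (20.2%). They became 0 under adipocyte markers and 0 under the replicate block. With 1 mouse left out, 21 passed without NCD replicate 1 and 0 otherwise. Those 21 became 30 in DESeq2 (5083 of 18882 genes) and 14 to 24 with an HFD mouse left out (11.2% to 25.1% of all genes). Fewer passed where a lone NCD mouse remained. Same-numbered mice did not deviate together (correlations -0.05, -0.02 and -0.02), and the other combinations ran from -0.062 to 0.066. With 3 mice a diet these values cannot exclude a pairing by number. The deposited column of HFD replicate 3 carries the number 4. Over all genes the block gave 12 calls, where the fit without it gave 1139, DESeq2 3853 and adipocyte markers 22.

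Signs turned for log2 fold changes not past the threshold in the comparison as reported, of which Mgll passed without NCD replicate 1 and HFD replicate 1 (-0.84, adjusted p = 0.0457 in edgeR). With 6 mice these were Mgll (total counts 0.16, adipocyte markers 0.15, replicate block 0.0276, and -0.55 to 0.20 with 1 mouse left out) and Adrb1 (total counts 0.19, and -0.49 to 0.040 with 1 mouse left out). Without NCD replicate 1 they were Pnpla2 (median-of-ratios -0.0031, upper-quartile -0.031, and -0.21 to 0.26 with a mouse left out), Mgll (adipocyte markers 0.17) and Adrb1 (adipocyte markers 0.28). Among ratios to markers, Abhd5 (-0.35 to 0.11 with 1 mouse left out, turned without HFD replicate 1) and Adrb1 (-0.23 to 0.27, turned without NCD replicate 3 or HFD replicate 3) changed sign. The causes were not tested. Total-count scaling put the median of all genes at 0.45 with 6 mice and 0.23 without NCD replicate 1, adipocyte markers at -0.36 and 0.78. Adrb3 was lower in all 14 alternatives with 6 mice (-2.44 to -1.17, called in 2) and in all 12 without NCD replicate 1 (-2.87 to -1.53, called in 8); for G0s2 the latter ran from -1.60 to -0.69 (called in 9). Adrb1 had few reads, at 65 in NCD replicate 1, where seminal vesicle genes held 58.6% of counts. The part of counting error in its spread was not tested.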

Other observations

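Within the HFD group Adrb3 was at 150, 304 and 89.1 TMM-scaled CPM in replicates 1, 2 and 3. In CPM without TMM scaling, the macrophage markers summed to 4044, 2219 and 2770 and the adipocyte markers to 4691, 4993 and 3510. The mouse with the most Adrb3, HFD replicate 2, had the least macrophage marker RNA of the 3. Its adipocyte marker sum was the highest of the 3 without TMM scaling, but on the TMM scale the sum was slightly higher in HFD replicate 1. On that scale Cidec was higher in HFD replicate 1 (1696 CPM) than in HFD replicate 2 (1531 CPM), while Adipoq, Plin1 and Pparg were highest in HFD replicate 2. Pnpla2, at 1153, 1285 and 933 TMM-scaled CPM, was also highest in replicate 2 and lowest in replicate 3. Aqp7 was highest in replicate 1, at 266, 159 and 129 TMM-scaled CPM. With 3 mice no relation was tested.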
